A study of Mus musculus with 4 samples.

Results

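The liver sinusoidal endothelial cell lines the wide capillaries between the plates of hepatocytes. To see how much of its RNA each liver library held, 10 marker genes of this cell were looked up by symbol in the deposited TPM table, which lists 35739 genes. They are *Stab1*, *Stab2*, *Clec4g*, *Fcgr2b*, *Kdr*, *Pecam1*, *Lyve1*, *Mrc1*, *Egfl7* and *Eng*, and all 10 were found. TPM, the unit salmon gives, is a share of the RNA in a library, corrected for transcript length, so that levels of different genes can be compared.

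The libraries came from whole liver of WT mice (replicates 2 and 3) and of *Usp21* KO mice (replicates 1 and 3), 4 libraries in all, named WT 2, WT 3, KO 1 and KO 3 here. *Usp21* encodes a deubiquitylating enzyme. The KO allele lacks exons 3 and 4 in every tissue, because the floxed allele, made in 129/Sv-derived ES cells, was excised by crossing to Cre-expressing mice. WT and KO mice were littermates of 10 to 11 weeks on a mixed B6 × 129/Sv background and on a normal diet. Sex and any pooling of mice are not given in the sources used here, and the endothelium was not sorted. *Usp21* itself was at 4.07 TPM in WT 2, 6.29 TPM in WT 3, 1.64 TPM in KO 1 and 2.93 TPM in KO 3 (log2 fold change -0.92 ± 0.33 SE, unadjusted p = 0.0336, adjusted p = 0.464 by limma), so the KO libraries were the lower ones without overlap. The liver markers were as labelled, with *Alb*, the serum albumin gene of hepatocytes, at 27475 to 43181 TPM.

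Sinusoidal endothelial cells have pores without a diaphragm and hardly any basement membrane, so plasma reaches the hepatocytes directly. They are among the most active scavenger cells of the body and clear waste molecules and small immune complexes through a set of receptors. *Stab1* and *Stab2* encode the large scavenger receptors stabilin-1 and stabilin-2, of which stabilin-2 takes up hyaluronan. *Mrc1* encodes the mannose receptor, and *Lyve1* encodes a membrane receptor for hyaluronan that lymphatic endothelium also carries. *Clec4g* encodes the lectin LSECtin, and *Fcgr2b* the inhibitory receptor for the constant part of IgG. *Kdr* encodes VEGF receptor 2, *Eng* (endoglin) a co-receptor for BMP9 and TGF-β, *Pecam1* the junction protein CD31, and *Egfl7* a secreted protein of the vessel wall. These last 4 genes are used by endothelium of most organs, and *Mrc1* and *Fcgr2b* are also used by macrophages.

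The regions just upstream of these genes are shown for the 2 members whose KO libraries lay above the WT libraries and that have a window (*Stab1*, *Mrc1*), next to *Stab2* and *Clec4g*, whose libraries overlapped. RefSeq windows on GRCm38.p6, from 250 bases before to 50 bases after the start site, were matched for 8 of the 10 members, with 10 windows in all because *Egfl7* has 3. *Pecam1* and *Lyve1* were not matched. Capitals mark AGGAAG or its reverse complement CTTCCT, the core letters of an ETS factor motif. ETS factors are transcription factors, several of which are known for their role in endothelium. The windows are Stab1 at chr14:31168592-31168891 (reverse strand), Mrc1 at chr2:14229164-14229463 (forward strand), Stab2 at chr10:87007893-87008192 (reverse strand) and Clec4g at chr8:3720602-3720901 (reverse strand), each written 5′ to 3′ on the strand of the gene.
Stab1: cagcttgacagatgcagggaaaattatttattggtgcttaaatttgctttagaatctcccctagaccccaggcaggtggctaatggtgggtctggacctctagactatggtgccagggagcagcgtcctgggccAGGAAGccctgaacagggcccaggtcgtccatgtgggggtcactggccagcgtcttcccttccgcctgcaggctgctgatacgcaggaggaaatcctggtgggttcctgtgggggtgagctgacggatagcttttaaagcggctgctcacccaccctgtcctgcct
Mrc1: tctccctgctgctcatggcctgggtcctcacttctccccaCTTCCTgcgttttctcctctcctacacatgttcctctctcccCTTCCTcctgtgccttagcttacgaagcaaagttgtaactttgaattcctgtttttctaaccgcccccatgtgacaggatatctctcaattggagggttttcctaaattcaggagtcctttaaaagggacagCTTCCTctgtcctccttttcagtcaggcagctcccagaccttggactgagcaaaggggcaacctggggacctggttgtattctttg
Stab2: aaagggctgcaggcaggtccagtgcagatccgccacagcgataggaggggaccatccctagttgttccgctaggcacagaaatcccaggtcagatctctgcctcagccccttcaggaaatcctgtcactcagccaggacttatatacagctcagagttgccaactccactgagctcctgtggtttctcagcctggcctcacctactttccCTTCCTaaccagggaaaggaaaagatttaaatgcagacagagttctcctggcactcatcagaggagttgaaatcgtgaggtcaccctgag
Clec4g: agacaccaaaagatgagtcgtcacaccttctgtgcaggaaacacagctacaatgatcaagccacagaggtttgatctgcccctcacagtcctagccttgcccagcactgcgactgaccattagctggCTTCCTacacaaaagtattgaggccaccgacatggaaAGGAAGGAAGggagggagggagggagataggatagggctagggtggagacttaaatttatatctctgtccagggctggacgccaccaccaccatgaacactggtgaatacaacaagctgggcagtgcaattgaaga

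The ETS letters were found in 7 of the 10 windows, which belong to 6 of the 8 members, against 35.4% of all 32851 promoter windows (11613 windows). The matches in the windows shown began 116 bases before the start site of *Stab1*, 40 bases before that of *Stab2*, 210, 168 and 36 bases before that of *Mrc1*, and 123, 86 and 82 bases before that of *Clec4g*. *Eng* and *Egfl7* held matches too, and *Fcgr2b* and *Kdr* held none in these windows. AGATAA and its reverse complement TTATCT, letters of a GATA factor motif, were in 0 of the 10 windows, against 11.2% of all windows. A match is a string of letters only, and no binding was measured here. The letters were present in promoters of members whose groups overlapped and of members whose groups did not.

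Members *Egfl7* and *Mrc1* also host a microRNA in an intron. These mature sequences are shown because each is transcribed with its host gene, and capitals mark the seed, bases 2 to 8. They lie at chr2:26591402-26591423 in intron 7 of *Egfl7* and at chr2:14261051-14261072 in intron 5 of *Mrc1*, on the forward strand of GRCm38.p6, and have different seeds.
mmu-miR-126a-3p: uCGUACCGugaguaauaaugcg
mmu-miR-511-3p: aAUGUGUAgcaaaagacaggau
Mature microRNAs were not analysed here, so the values below for *Egfl7* and *Mrc1* are those of the host genes. *Eng* also overlaps the annotated microRNA genes *Mir1954* and *Gm47291* on the same strand, whose sequences were not looked up.

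All 10 members averaged 1 TPM or more, the level from which 9581 genes were tested. *Lyve1* reached it only through the KO libraries. In the test of *Usp21* KO against WT with limma on log2(TPM + 1), 0 of the 10 members had an adjusted p under 0.05, against 0.0835% of all genes tested (8 genes). The lowest adjusted p of a member was 0.472 (*Lyve1*) and the highest 0.994 (*Eng*). By unadjusted p under 0.05 the count was 1 of 10 members (*Lyve1*), against 10.5% of all genes (1005 genes), and edgeR and DESeq2 on reads recovered from the second table could test *Eng* only and made 0 calls among the members. Changes of at least 2-fold were reached by 0 of 10, against 3.68% of all genes. The mean was higher in KO for 9 of 10 members, against 66.7% of all genes, and the members' median log2 fold change was 0.20 against 0.15 for all genes. The KO and WT libraries did not overlap for 3 of 10, all with the KO libraries higher, against 34.4% of all genes in that direction. *Lyve1*, brought into the test by its KO values, is among these 3. With 2 libraries per genotype, an exact permutation test of 1 gene cannot go below p = 0.333.

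**Figure D1:**
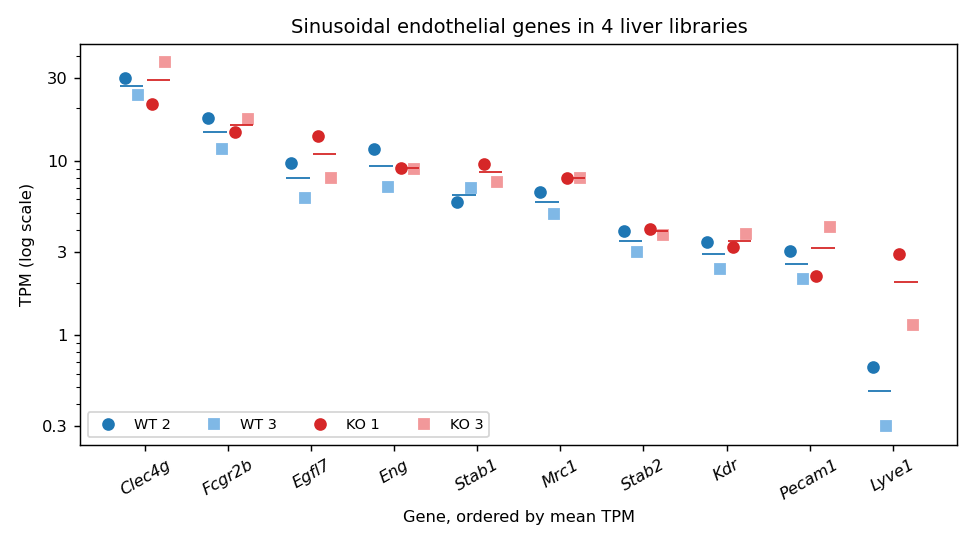
TPM of each marker gene in each of the 4 libraries, on a log axis, with WT and *Usp21* KO libraries in different colours and a short line at each genotype's mean. *Lyve1* runs from 0.298 to 2.91 TPM with the KO libraries above the WT libraries, whereas the points of *Clec4g*, *Fcgr2b* and *Eng* interleave.

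The stabilins were expressed in every library. *Stab1* (chr14:31139013-31168641, reverse strand, GRCm38) was at 5.77 TPM in WT 2, 6.97 TPM in WT 3, 9.56 TPM in KO 1 and 7.57 TPM in KO 3. The KO libraries were above the WT libraries without overlap, although KO 3 and WT 3 were close. The mean was 8.56 ± 1.41 TPM in KO and 6.37 ± 0.850 TPM in WT (SD, n = 2 each), with a log2 fold change of 0.37 (95% CI -0.21 to 0.96, adjusted p = 0.573 by limma), which did not pass the test.

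*Stab2* (chr10:86841198-87008025, reverse strand) was lower than *Stab1* in every library, at 3.95 TPM in WT 2, 2.98 TPM in WT 3, 4.08 TPM in KO 1 and 3.77 TPM in KO 3. WT 2 lay between the KO libraries, and WT 3 was the lowest. The log2 fold change was 0.15 (95% CI -0.47 to 0.77, adjusted p = 0.834 by limma). The level of *Stab1* over that of *Stab2* was 1.46 in WT 2 and 2.34, 2.34 and 2.01 in WT 3, KO 1 and KO 3, so this ratio overlapped between genotypes and WT 2 was the library that stood apart.

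*Mrc1* (chr2:14229392-14332057, forward strand), the mannose receptor, was at 6.65 TPM in WT 2 and 4.97 TPM in WT 3, and at 8.0 TPM in KO 1 and 7.97 TPM in KO 3. The KO libraries were nearly equal and lay above the WT libraries. On the log2 scale the KO libraries differed from each other by 0.0047 and the WT libraries by 0.36, while KO minus WT was 0.41 (95% CI -0.17 to 0.99, unadjusted p = 0.132, adjusted p = 0.539 by limma). In TPM the means were 7.99 ± 0.0206 for KO and 5.81 ± 1.19 for WT (SD, n = 2 each).

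*Lyve1* (chr7:110850607-110863239, reverse strand) was the lowest member, at 0.651 TPM in WT 2, 0.298 TPM in WT 3, 2.91 TPM in KO 1 and 1.14 TPM in KO 3. It also varied most among the members, by 9.75-fold between KO 1 and WT 3. The KO libraries were the higher ones, and they differed from each other by 0.87 on the log2 scale. The mean was 2.02 ± 1.25 TPM in KO and 0.475 ± 0.249 TPM in WT (SD, n = 2 each), a ratio of 4.26. *Lyve1* passed the filter for testing only through its KO libraries, which favours a value above 0, so its rank among the tested genes carries no weight. On the log2(TPM + 1) scale, which understates the change of such a low gene, the log2 fold change was 0.98 (95% CI 0.03 to 1.93, unadjusted p = 0.0444, adjusted p = 0.472 by limma). It was above 2-fold with a pseudocount of 0.1 (1.82), and at a pseudocount of 5 it was 0.35. Without KO 1, the highest library, the log2 fold change was 0.55, and without KO 3 it was 1.42. Its unadjusted p was no longer under 0.05 with a pseudocount of 5, with upper quartile or median ratio scaling, without moderation of the variances, or without WT 2, WT 3 or KO 1.

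The other tested genes of the lymphatic endothelial list were set beside *Lyve1*, since that receptor is shared with lymphatic vessels. *Prox1*, a transcription factor of lymphatic endothelium and of hepatocytes, was at 4.90 and 3.15 TPM in WT 2 and WT 3 and at 7.16 and 5.40 TPM in KO 1 and KO 3. *Reln*, which stellate cells also express, was at 7.02 and 4.52 TPM in WT 2 and WT 3 and at 10.3 and 7.74 TPM in KO 1 and KO 3. *Flt4*, which encodes VEGF receptor 3 and is also expressed by sinusoidal endothelium, was at 1.35, 1.14, 1.47 and 1.70 TPM in WT 2, WT 3, KO 1 and KO 3. All 3 had the KO libraries above the WT libraries, a separation seen for 34.4% of all genes. With *Lyve1*, 4 genes of this list of 7 were tested, and 0 passed the adjusted test. The median log2 fold change over the 4 was 0.56, and 0.55 without *Lyve1*. *Ccl21a*, *Pdpn* and *Mmrn1* were below the level tested, and their libraries overlapped between genotypes. *Ccl21a* was at 0.332, 0, 1.61 and 0.298 TPM in WT 2, WT 3, KO 1 and KO 3. *Pdpn* was above 0 only in KO 3 (0.127 TPM), and *Mmrn1* only in WT 2 (0.0975 TPM). The part of lymphatic cells in the values of *Lyve1* was not tested.

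*Clec4g* (chr8:3707064-3720651, reverse strand) was the most abundant member, at 29.7 TPM in WT 2, 23.8 TPM in WT 3, 21.3 TPM in KO 1 and 36.8 TPM in KO 3. The lowest and the highest library were both KO libraries. The mean was 29.0 ± 11.0 TPM in KO and 26.8 ± 4.14 TPM in WT (SD, n = 2 each), with a log2 fold change of 0.07 (95% CI -0.67 to 0.81, adjusted p = 0.939 by limma). An antisense gene, *Gm16553*, overlaps it, and how strand was treated in the quantification is not given in the sources used here.

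*Fcgr2b* (chr1:170958617-170976547, reverse strand), the inhibitory IgG receptor, was at 17.6 TPM in WT 2, 11.7 TPM in WT 3, 14.6 TPM in KO 1 and 17.4 TPM in KO 3. The KO libraries lay between the WT libraries. The log2 fold change was 0.14 (95% CI -0.50 to 0.77, adjusted p = 0.853 by limma). The gene lies 305 kb from *Usp21* on the same chromosome, so at this gene the deletion and DNA of the ES cell strain carried along with it cannot be told apart. It shares 5.78% of its 31-base words with transcripts of other genes, most of them (4.15% of its words) with the neighbouring *Fcgr3*, so the division of reads between these genes is uncertain. *Fcgr3*, an activating IgG receptor of macrophages, was at 3.3, 3.54, 1.56 and 3.90 TPM in WT 2, WT 3, KO 1 and KO 3, and *Fcer1g*, the signalling chain it pairs with, was at 14.6, 25.5, 12.3 and 19.9 TPM in the same order. KO 1 was the lowest library for these neighbours but not for *Fcgr2b*. Of the 6 genes of this receptor cluster, 4 were tested, with a median of -0.10, and 0 had an unadjusted p under 0.05, while *Fcrlb* was listed at 0 in all libraries.

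The members used by endothelium in general overlapped between genotypes throughout. *Kdr* (chr5:75932827-75978458, reverse strand) was at 3.40 TPM in WT 2, 2.40 TPM in WT 3, 3.19 TPM in KO 1 and 3.77 TPM in KO 3, with a log2 fold change of 0.21 (95% CI -0.45 to 0.87, adjusted p = 0.776 by limma). *Eng* (chr2:32646595-32682669, forward strand) was at 11.6 TPM in WT 2, 7.09 TPM in WT 3, 9.14 TPM in KO 1 and 9.0 TPM in KO 3. Its WT libraries were the extremes and its KO libraries nearly equal, and it was the only member with a lower mean in KO, by -0.01 on the log2 scale (95% CI -0.69 to 0.68, adjusted p = 0.994 by limma).

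*Pecam1* (chr11:106654217-106750628, reverse strand) was at 3.04 TPM in WT 2, 2.10 TPM in WT 3, 2.18 TPM in KO 1 and 4.17 TPM in KO 3. KO 1 was close to WT 3 and KO 3 was the highest, and the log2 fold change was 0.20 (95% CI -0.64 to 1.03, adjusted p = 0.840 by limma). *Egfl7* (chr2:26580014-26593120, forward strand) was at 9.75 TPM in WT 2, 6.15 TPM in WT 3, 13.8 TPM in KO 1 and 7.98 TPM in KO 3, with KO 1 the highest and KO 3 between the WT libraries (log2 fold change 0.40, 95% CI -0.45 to 1.24, adjusted p = 0.668 by limma). The annotated *Gm20532* overlaps *Egfl7* on the same strand, shares 5.49% of the 31-base words of *Egfl7* and is listed at 0 in all libraries.

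**Figure D2:**
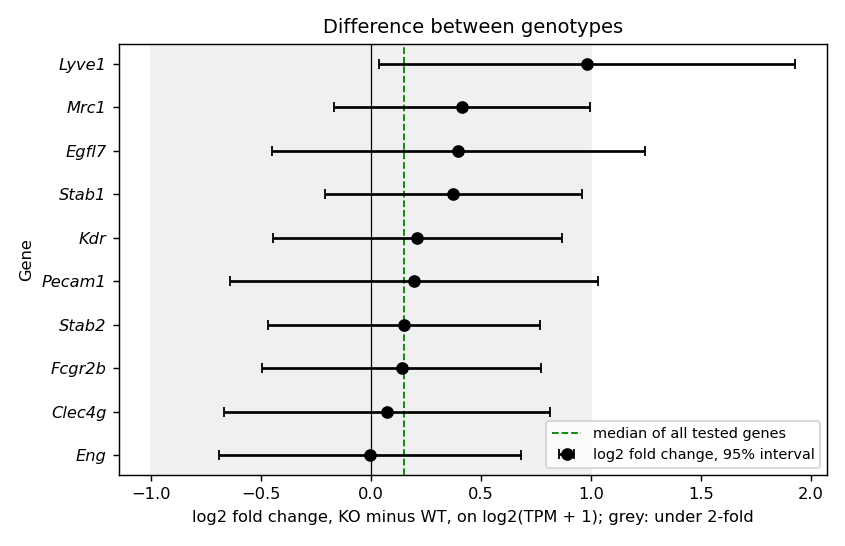
Log2 fold change of *Usp21* KO against WT on log2(TPM + 1) for each marker gene (points) with its 95% confidence interval from limma (bars). The dashed line is the median of all tested genes (0.15), and grey marks changes under 2-fold. The interval of *Lyve1* runs from 0.03 to 1.93, and those of the other 9 genes include 0.

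Per length, the members ranged from a mean of 1.25 TPM (*Lyve1*) to 27.9 TPM (*Clec4g*). In the order of their means, *Clec4g* was followed by *Fcgr2b*, *Egfl7*, *Eng*, *Stab1*, *Mrc1*, *Stab2*, *Kdr*, *Pecam1* and *Lyve1*. The ranges of neighbours over the 4 libraries were apart from *Clec4g* to *Fcgr2b* and from *Mrc1* to *Stab2*. The ranges of the other neighbours overlapped, although *Fcgr2b* was above *Egfl7* in each of the 4 libraries, and *Egfl7* was above *Eng* in 1 of the 4 libraries and *Stab1* above *Mrc1* in 2. The scavenger receptors also differed from the lectin in balance: the level of *Stab1* over that of *Clec4g* was 0.449 in KO 1, against 0.194, 0.292 and 0.206 in WT 2, WT 3 and KO 3. For *Mrc1* over *Clec4g* it was 0.376 in KO 1 and between 0.208 and 0.224 in the other libraries.

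The WT libraries differed from each other by more than the genotypes did for every member except *Stab1*, *Mrc1* and *Lyve1*. WT 3 was the lowest library for 8 of the 10 members, the exceptions being *Stab1*, lowest in WT 2, and *Clec4g*, lowest in KO 1. Of all genes tested, 31.2% were lowest in WT 3, and 31.9% of the 7012 genes within the members' range of mean TPM. WT 2 was above WT 3 for 9 of 10 members (all but *Stab1*), against 49.9% of all genes, and the members' median difference was 0.37 on the log2 scale against 0 for all genes. This difference exceeds the members' median log2 fold change between genotypes (0.20). KO 1 was above KO 3 for 6 of 10 members, with a median difference of 0.01 on the log2 scale. Of all genes tested, 45.9% were highest in KO 1 and 21.6% in KO 3. No test was made of these counts, because the members share their libraries.

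**Figure D3:**
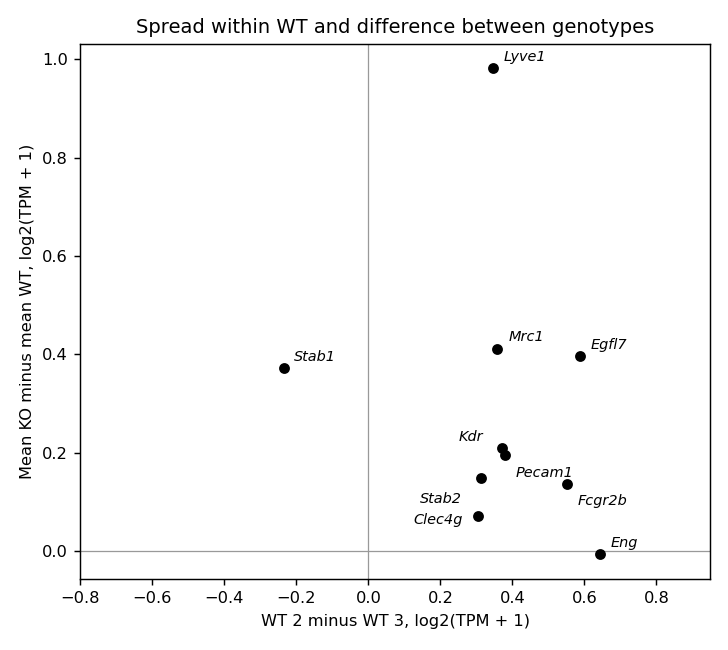
Difference between the WT libraries (WT 2 minus WT 3, horizontal axis) and between genotypes (*Usp21* KO minus WT, vertical axis) on log2(TPM + 1) for each marker gene. The points for 9 of the 10 genes lie right of 0 on the horizontal axis, *Stab1* lies at -0.24, and *Lyve1* is the highest point at 0.98.

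Summed over the 10 members, the level was 92.2 TPM in WT 2, 68.5 TPM in WT 3, 88.7 TPM in KO 1 and 99.6 TPM in KO 3. WT 2 lay between the KO libraries and WT 3 below them. *Clec4g* was the largest part of each sum, at 29.7, 23.8, 21.3 and 36.8 TPM in the same order. The order of WT 2, KO 1 and KO 3 in the sum leans on this gene. After each gene was centred on its mean over the libraries, the members' median was 0.09 in WT 2, -0.30 in WT 3, 0.07 in KO 1 and 0.12 in KO 3 on the log2 scale. The median of all genes tested was -0.07, -0.08, 0.15 and 0.01 in the same order. The members were thus below it in WT 3 and KO 1 and above it in WT 2 and KO 3. Without WT 3, the members' median log2 fold change was 0.01, with 6 members higher and 4 lower in KO, and without WT 2 it was 0.39, with 10 higher. In bulk liver, fewer endothelial cells and less RNA per endothelial cell cannot be told apart. The scaling of the libraries also entered the direction of small differences: with median ratio scaling, which moved the median of all genes from 0.15 to 0.00, the members' median was 0.07, 7 were higher and 3 lower, and *Clec4g* (-0.10) and *Fcgr2b* (-0.03) changed sign.

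Further endothelial genes were described by list, to see whether they shared this order of the libraries. Of 18 tested genes among 21 other sinusoidal genes, 13 were higher and 5 lower in KO, against 66.7% of all genes higher. The median log2 fold change was 0.19, against 0.15 for all genes. An unadjusted p under 0.05 was reached by 0 of the 18, against 10.5% of all genes. WT 3 was the lowest library for 8 of the 18 and KO 1 for 6, against 31.2% and 13.3% of all genes. The most abundant of them were *Ctsl*, the lysosomal protease cathepsin L (260, 267, 417 and 215 TPM in WT 2, WT 3, KO 1 and KO 3), *Fcgrt*, the neonatal Fc receptor (88.0, 77.1, 75.0 and 117 TPM), and *Plpp3*, a lipid phosphatase (30.3, 20.4, 22.6 and 18.9 TPM), the first 2 of which hepatocytes or macrophages also express. The libraries overlapped for these 3. The genes with the KO libraries above the WT libraries were *Gpr182*, *Ehd3*, *Flt4*, *Adgrf5* and *Maf*, 5 of 18 against 34.4% of all genes.

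Of 22 tested pan-endothelial genes, 15 had a higher and 7 a lower mean in KO, against 66.7% of all genes higher. The median log2 fold change was 0.19, against 0.15 for all genes. Without the member *Eng*, 14 of 21 were lowest in WT 3, against 31.2% of all genes. *S1pr1*, the sphingosine-1-phosphate receptor, was at 14.4, 11.7, 22.7 and 13.0 TPM in WT 2, WT 3, KO 1 and KO 3, and *Plvap*, which forms the diaphragms of fenestrated capillaries, was at 14.9, 10.9, 12.0 and 12.8 TPM. *Gpihbp1*, the capillary anchor of lipoprotein lipase, was among the 7 with a lower mean in KO. It was at 16.3 TPM in both WT libraries against 10.9 and 10.7 TPM in KO 1 and KO 3 (log2 fold change -0.55 ± 0.19 SE, adjusted p = 0.464 by limma). It was the only gene of this list with an unadjusted p under 0.05, and it did not pass the adjusted threshold.

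Genes of larger vessels were low. Only 6 of 17 were tested, and *Edn1* was listed at 0 in all libraries. *Ltbp4*, a matrix protein, was at 10.8, 3.19, 13.0 and 8.93 TPM in WT 2, WT 3, KO 1 and KO 3, the adhesion molecule *Vcam1* at 2.01, 3.95, 2.66 and 4.61 TPM, and the venous receptor *Ephb4* at 3.91, 2.75, 3.70 and 2.65 TPM. All 3 overlapped between genotypes, and the list's median log2 fold change was 0.27. Of the 6 tested genes, 2 were lowest in WT 3, against 31.2% of all genes.

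Of the zonation and angiocrine genes, 7 of 16 were tested, with a median of 0.28. WT 3 was the lowest library for 3 of the 7, against 31.2% of all genes. *Fabp4*, a lipid chaperone of capillary endothelium and adipocytes, was at 4.61 and 9.47 TPM in WT 2 and WT 3 and 15.4 and 9.91 TPM in KO 1 and KO 3. *Bmp2*, which drives hepcidin expression in hepatocytes, was at 3.34, 2.98, 2.50 and 4.07 TPM, and the scavenger receptor *Msr1* at 1.73, 1.51, 1.11 and 3.76 TPM. *Fabp4* was apart by little, and the others overlapped. *Kit*, a receptor of central sinusoidal endothelium that is also among the genes the study shortlisted from these samples, was below the level tested, at 0.729, 0.716, 0.311 and 0.281 TPM.

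Of 32 listed ligands, receptors and targets of the VEGF, angiopoietin and BMP9 pathways, 22 were tested. KO had the higher mean for 19 and the lower for 3, against 66.7% of all genes higher. The median log2 fold change was 0.24, against 0.15 for all genes. Of the 22, 8 were lowest in WT 3 and 8 in WT 2, against 31.2% and 32.6% of all genes. The ligands included *Vegfa*, which hepatocytes make, at 8.14 and 10.1 TPM in WT 2 and WT 3 and 24.5 and 10.3 TPM in KO 1 and KO 3. *Vegfb* was at 9.87 and 10.2 TPM against 15.4 and 14.1 TPM (log2 fold change 0.51 ± 0.19 SE, adjusted p = 0.468 by limma). Of the BMP targets, *Id2* was at 61.1, 49.6, 162 and 52.4 TPM and *Id3* at 21.6, 15.0, 79.8 and 11.0 TPM in WT 2, WT 3, KO 1 and KO 3, so KO 1 alone was high. *Smad9*, a signal transducer of BMP receptors, was at 1.74 TPM in WT 2, 1.19 TPM in WT 3, 3.06 TPM in KO 1 and 2.87 TPM in KO 3 (log2 fold change 0.69 ± 0.26 SE, adjusted p = 0.469 by limma). *Vegfb* and *Smad9* were the genes of this list with an unadjusted p under 0.05, and the ligands *Pgf* and *Apln* were listed at 0. *Kdr* and *Eng*, the receptors among the members, overlapped between genotypes as given above.

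**Figure D4:**
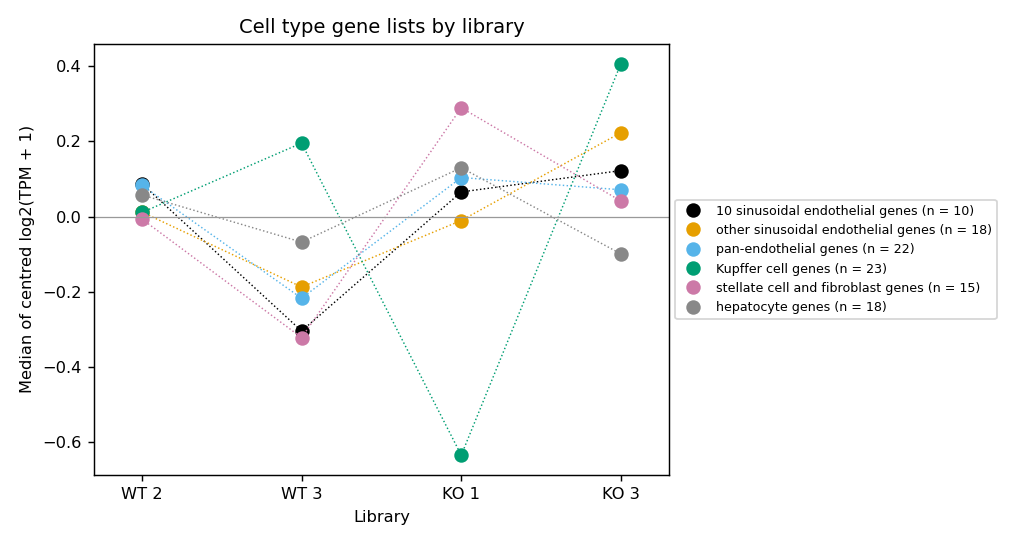
Median over the tested genes of each list of log2(TPM + 1) centred on each gene's mean, per library (points, joined by dotted lines only to guide the eye). The sinusoidal endothelial members are lowest in WT 3 (-0.30), stellate cell genes are lowest in WT 3 (-0.32), and Kupffer cell genes are lowest in KO 1 (-0.64). The median of all genes tested, not drawn, is -0.07 in WT 2, -0.08 in WT 3, 0.15 in KO 1 and 0.01 in KO 3.

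Genes of other liver cells also varied between the libraries. Kupffer cells, the resident macrophages of the sinusoid, share *Mrc1* and *Fcgr2b* with the endothelium. Of their 23 tested genes, 18 were lowest in KO 1 and 0 in WT 3, against 13.3% and 31.2% of all genes. The mean was higher in KO for 5 and lower for 18, against 66.7% of all genes higher. Their median log2 fold change was -0.11, against 0.15 for all genes. Without KO 1 it was 0.23, and without KO 3 it was -0.67. Their summed level was 439, 500, 362 and 554 TPM in WT 2, WT 3, KO 1 and KO 3. The complement gene *C1qa* was at 47.8, 56.4, 23.4 and 59.3 TPM, the lysozyme gene *Lyz2* at 31.8, 54.5, 25.7 and 59.8 TPM, and *Nr1h3*, the sterol receptor LXRα, at 39.2, 46.4, 40.3 and 38.8 TPM. The members *Clec4g* and *Pecam1* were also lower in KO 1 than in KO 3, by 0.76 and 0.70 on the log2 scale, and *Fcgr2b* and *Kdr* by 0.24 and 0.19, whereas *Mrc1* was nearly equal in both and the other 5 members were higher in KO 1. The part of Kupffer cells in the members' values was not tested.

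Stellate cell and fibroblast genes, from the pericytes of the sinusoid, were lowest in WT 3 for 11 of 15 tested genes, against 31.2% of all genes. Their summed level was 174, 136, 251 and 198 TPM in WT 2, WT 3, KO 1 and KO 3, and their median log2 fold change was 0.37. *Ecm1*, a matrix protein, was at 62.0, 38.1, 80.3 and 46.0 TPM and the proteoglycan gene *Dcn* at 42.6, 34.1, 62.8 and 48.4 TPM. *Rgs5*, a pericyte gene, was at 3.81 and 2.62 TPM in WT against 13.6 and 8.58 TPM in KO (log2 fold change 1.51 ± 0.31 SE, adjusted p = 0.405 by limma), and *Bgn* at 20.5 and 26.5 TPM against 34.4 and 46.9 TPM (0.76 ± 0.24 SE, adjusted p = 0.464). The part of these cells in the low values of WT 3 was not tested. The positions of *Rgs5* and *Bgn* relative to *Usp21* were not looked up, so strain DNA carried along with the deletion was not considered for them.

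Hepatocyte genes had a median log2 fold change of -0.01 over 18 tested genes, against 0.15 for all genes. With upper quartile and median ratio scaling it was -0.14 and -0.18, against 0.04 and 0.00 for all genes. Their summed level was between 96366 and 127674 TPM. Their sum was lowest in KO 3 and not in WT 3. *Alb* was at 43181, 32024, 31006 and 27475 TPM in WT 2, WT 3, KO 1 and KO 3, *Apoa2* at 18855, 15324, 16157 and 14000 TPM, and *Trf* at 11190, 10975, 12287 and 10402 TPM. *Tat*, an enzyme of tyrosine breakdown, was at 278 and 458 TPM in WT against 543 and 705 TPM in KO, and *Hnf4a*, a hepatocyte transcription factor, at 112 and 105 TPM against 171 and 155 TPM. These were the list's only genes with an unadjusted p under 0.05, and the adjusted p of each was 0.464 by limma.

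Of the cholangiocyte genes, 3 of 9 were tested, with a median of 0.97. *Tff3* was at 1.68 and 20.9 TPM in WT 2 and WT 3 and 72.1 and 3.69 TPM in KO 1 and KO 3, *Sox9* at 0.641, 1.88, 2.41 and 1.83 TPM, and *Spp1* at 13.2 and 12.7 TPM in WT against 33.4 and 20.7 TPM in KO (0.97 ± 0.27 SE, adjusted p = 0.464 by limma). Lymphocyte genes were too low to be tested (0 of 14), with a summed level between 5.36 and 6.53 TPM and with *Nkg7* (0.805 to 1.40 TPM), *Gzma* (0.726 to 1.29 TPM) and *Cd79a* (0.506 to 1.62 TPM) as the most abundant. Of 7 tested neutrophil and red cell genes, 6 were lower in KO, whereas 66.7% of all genes were higher. The neutrophil gene *S100a8* was at 2.26 TPM in WT 2, 29.1 TPM in WT 3, 1.12 TPM in KO 1 and 0.738 TPM in KO 3, and was the only gene of this list with a difference of at least 2-fold (log2 fold change -2.37 ± 0.99 SE, adjusted p = 0.478 by limma). Its partner *S100a9* was at 0.425, 12.7, 3.04 and 1.11 TPM in the same order, so both were far higher in WT 3, the library in which 8 of the 10 members were lowest. The part of these cells in the low values of WT 3 was not tested either. *Hbb-bs* ranged from 296 to 418 TPM, *Hba-a2* from 252 to 274 TPM, and *Hba-a1* was at 133 and 139 TPM in WT against 107 and 90.7 TPM in KO (-0.46 ± 0.17 SE, adjusted p = 0.465 by limma). The myeloid gene *Mpo* was listed at 0 in all libraries. The haemoglobin genes are near-identical copies, so the split of reads between them is uncertain.

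The second deposited table, of TMM-normalized CPM from gene counts, held few reads of the members. From the step between its lowest values, between 102898 and 148164 reads per library were recovered. *Eng* was at 123 and 110 CPM in WT 2 and WT 3 and 107 and 92.2 CPM in KO 1 and KO 3, which corresponds to 16, 12, 16 and 10 reads. *Stab1* had 3 reads in WT 2 and 1 read in WT 3, and 0 in the KO libraries, which is the opposite order to its TPM values, and in this table its p by limma was under 0.05 before but not after adjustment. *Egfl7*, *Stab2* and *Kdr* had 1 read each, in KO 3, and the other 5 members were at 0 in all libraries. A 0 in this table leaves room for up to 3 reads (20.04 to 27.7 CPM, by library), which covers counting error only. Of 686 genes that never fell under 100 TPM, 428 were at 0 throughout this table, so a 0 there gives no level. Reads above 0 need not follow TPM either. *Selp*, of the larger vessel list, had a mean of 0.341 TPM but 22, 10, 22 and 14 reads in WT 2, WT 3, KO 1 and KO 3. The mean of *Eng* was 9.22 TPM. The reads of *Eng* and *Stab1* here, and the edgeR and DESeq2 values of *Eng*, may therefore not reflect the levels of these genes.

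By likeness of profile, the genes of at least 10 TPM closest to the members' mean over the 4 libraries were *C1galt1*, *Ubb-ps*, *Mrpl9*, *Sec14l2* and *Tor1a*. Of 4023 genes compared, *C1galt1*, which encodes a glycosyltransferase of O-glycans, was the nearest, at 10.6, 7.89, 11.2 and 11.1 TPM in WT 2, WT 3, KO 1 and KO 3, with a root-mean-square difference of 0.0165 on the log2 scale. The difference was 0.0285 for *Tor1a*, the fifth. The members' mean profile was low in WT 3, so genes picked for likeness to it are low there by choice. *Tor1a*, for example, was at 27.0 TPM in WT 3 against 36.9 to 39.1 TPM in the other libraries. With 4 libraries such a ranking is a description only.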

How the data were processed

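RNA-seq of mouse liver was analysed in 4 libraries, 2 per genotype. Per the labels and the file headers, the authors quantified transcripts with salmon (mm10) and deposited gene sums as TPM. A second deposited table holds log2(TPM + 1). They also counted reads with HTSeq and deposited the counts as TMM-normalized CPM, a count-based signal, with its log2 form. Tool versions are not given in the sources used here. Samples were grouped by labels and columns by name, with 0 columns unused. The labels number the libraries within a genotype and do not say whether mice were pooled, so p-values measure only the spread between these libraries. TPM carries no depth. Recovered reads (148164, 110427, 145306 and 102898) came from the CPM steps, with 100% of values whole within 0.02 reads.

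The 9581 genes that averaged 1 TPM or more were tested two-sided on log2(TPM + 1) with limma 3.58.1 (lmFit, eBayes with a trend, 3.62 prior degrees of freedom) and Benjamini-Hochberg adjustment in R 4.3.3, across all genes. Alternatives were pseudocounts of 0.1 and 5, no filter, at least 5 TPM, upper quartile and median ratio scaling, unmoderated variances, the CPM table, edgeR 4.0.16 and DESeq2 1.42.0 on recovered reads, and each library left out. The scripts were tested on simulated data. The members and lists were chosen with earlier results of these data known. Named genes were the members, *Usp21*, the 3 most abundant genes of each other list and those with an unadjusted p under 0.05. *Kit*, *S100a8*, *S100a9*, *Ccl21a*, *Pdpn*, *Mmrn1*, *Selp* and the genes named with non-overlapping libraries or at 0 were added after their values were seen. Positions are from GENCODE M21 (GRCm38) and sequences from RefSeq (GRCm38.p6). Overlaps of 31-base words used the GENCODE transcripts.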

Additional observations from a re-analysis of the deposited data

How the results depend on the processing

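The depth behind TPM is unknown, and 2 libraries per genotype limit every comparison. No paired analysis was possible because the labels give no pairing, and replicate numbers run within a genotype. The count of members with an adjusted p under 0.05 was 0 with each alternative run. The count over all genes (8) was 4 without a filter, 0 without moderation, 1 with the CPM table, edgeR and DESeq2, and 0 to 0 with a library left out. Genes changed at least 2-fold (353) numbered 820 and 115 at pseudocounts of 0.1 and 5, 203 at a mean of at least 5 TPM, 3134 in the CPM table, 230 with edgeR, 233 with DESeq2 and 463 to 695 with a library left out. Members changed at least 2-fold (0) numbered 1 at a pseudocount of 0.1, 4 in the CPM table and 0 to 1 with a library left out, where the 1 was *Lyve1* without WT 2 or without KO 3. The members' median (0.20) was 1.68 in the CPM table, where it rests on 5 members and for 4 of them on 1 to 4 reads, -0.22 with edgeR and -0.25 with DESeq2, each from *Eng* alone, and 0.01 (without WT 3) to 0.39 (without WT 2) with a library left out.

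Signs changed for *Stab1* (-3.97) and *Tat* (-2.14) in the CPM table, for *Clec4g* with upper quartile (-0.057) and median ratio scaling (-0.098), and for *Fcgr2b* with median ratio scaling (-0.027). With a library left out, the log2 fold change ranged from -0.31 (without KO 3) to 0.45 (without KO 1) for *Clec4g*, which was -0.08 without WT 3. It ranged from -0.14 (without WT 3) to 0.41 (without WT 2) for *Fcgr2b*, from -0.0082 (without WT 3) to 0.31 (without WT 2) for *Stab2*, from -0.16 (without KO 3) to 0.55 (without KO 1) for *Pecam1*, and from -0.33 (without WT 3) to 0.32 (without WT 2) for *Eng*, which was 0.0037 without KO 3. Apart from alternatives that dropped a library or changed the scaling, the cause was not tested. Of the values of single genes and of lists other than the members, 327 kept their direction and side of the threshold (genes) or moved by less than the spread between replicates (list medians), and 36 list medians moved by more.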
